A study of Oryza sativa Japonica Group with 6 samples.

Results

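A set of 46 of the 55801 rice loci in the deposited count table was close to silent in wild-type (WT) seedlings and carried reads in every library of the mutant osino80. The members were chosen by the measured counts: at most 30 counts summed over the 3 WT libraries and at least 40 counts in each of the 3 osino80 libraries. The 186 loci numbered LOC_Os11g08500 to LOC_Os11g10500 on chromosome 11 were left out of the choice; 3 of them meet the same thresholds. Because the counts of both genotypes chose the members, the difference between genotypes is described here for these loci and not tested.

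The libraries are from untreated 14-day-old seedlings of the japonica cultivar Nipponbare grown in short days, 3 labelled wild-type and 3 labelled with the genotype osino80-2. Only this 1 mutant allele was sequenced, and the labels do not say what its lesion is, whether the WT plants came from the same family, or whether the numbered libraries came from separate plants. Any p-value below therefore reflects variation among these libraries alone, and that may be technical.

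OsINO80 is the rice version of INO80, the ATPase of a chromatin remodelling complex that slides nucleosomes and exchanges histones, and that is known for its work at promoters and at sites of DNA repair. In plants many loci give no transcript in seedlings, held silent by DNA methylation, by repressive histone marks or for want of an activator. In RNA pooled over the cells of seedlings, a silent locus cannot be told apart from one transcribed in very few cells. Nor can fewer cells be told apart from less RNA per cell.

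Counts totalled 61426662 to 73293481 per library and did not separate the genotypes. The locus taken as OsINO80 from general knowledge, LOC_Os03g22900, had 8671, 8074 and 7404 counts in WT against 3731, 3792 and 4034 in osino80. The mutant libraries thus kept part of this transcript. Libraries of a genotype correlated at 0.991 or more on log2 CPM across genes, and those of different genotypes at 0.975 or less; genes are not independent replicates. All 5 green leaf markers were present, with a summed level of 50660 to 51240 TPM (transcripts per 1000000, a level per length) in WT and 50430 to 51700 in osino80. Markers of other tissues were low: 3 root markers summed to 16.1 to 17.5 TPM in WT and 21.3 to 22.3 in osino80, 7 seed storage markers (4 at 0 in every library) to 2.88 to 3.16 and 2.67 to 3.81, and 8 anther markers (1 at 0 in every library) to 2.37 to 2.88 and 2.32 to 2.72. No marker was a member, and the part of the higher root markers in the results below was not tested.

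The files give identifiers of the LOC_Os form without names, and none of the 39387 genes in the reference table could be matched to one, so the loci are described by identifier, level, chromosome and neighbours. The first 2 digits of an identifier give the chromosome, and the last 5 number the loci along it.

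The members were a small part of what was silent in WT. Outside the left-out identifiers, 31069 loci had at most 30 counts over the WT libraries, and 30454 of these also had at most 30 over the osino80 libraries. A further 569 had more than 30 in osino80 without meeting the rule: 522 of them reached 40 counts in no osino80 library, 33 in 1 and 14 in 2. The 46 members were 0.148% of the loci silent in WT, and 0.0827% of all 55615 loci to which the rule was applied. With the genotypes exchanged, the same thresholds found 9 loci on in WT and silent in osino80, 0.0291% of the 30940 loci silent in osino80.

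**Figure D1:**
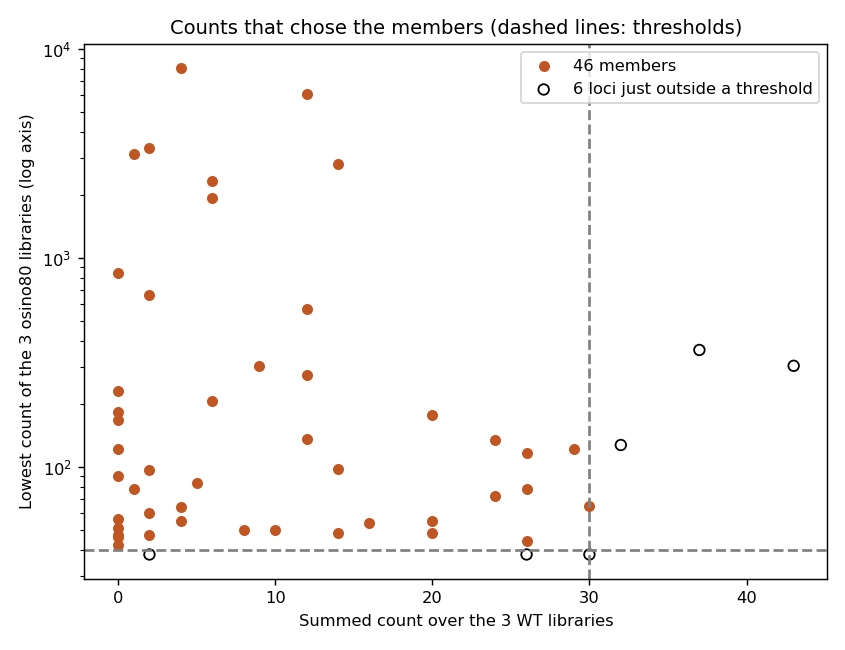
Summed count over the 3 WT libraries (horizontal axis) against the lowest count of the 3 osino80 libraries (vertical, log axis) for the 46 members and for 6 loci just outside a threshold. The 7 members at the top, from 1931 counts upward, stand apart from the others, and members crowd towards the threshold of 40.

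The 46 loci together held 161, 139 and 125 counts in WT against 34927, 33980 and 35913 in osino80. Per 1000000 counts this was 2.20, 2.00 and 2.04 in WT and 561, 549 and 543 in osino80. The 3 osino80 libraries were close to each other, and none of them carried the set alone: scaled to CPM (counts per 1000000), 17 members were highest in replicate 1, 14 in replicate 2 and 15 in replicate 3. In TPM the members summed to 8.52, 7.12 and 7.53 in WT and to 719, 713 and 703 in osino80.

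Levels within the set fell into a small abundant group and a long tail. In 7 members every osino80 library had over 1000 counts, from 1931 to 8613, and these held 81.8% of all osino80 counts of the set. The next highest count of any member was 1013. Another 7 members had a lowest osino80 count of 200 to 1000, and 32 stayed below 200 in at least 1 library. By length-scaled level, 10 members had a mean of at least 10 TPM in osino80, 22 had 1 to 10 TPM and 14 less than 1 TPM. The median member had 2.41 TPM, against a median of 9.90 TPM over the 24914 loci with enough reads to be tested; 10 members lay above that value. All 46 members passed that filter on low counts, each through its osino80 libraries.

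**Figure D2:**
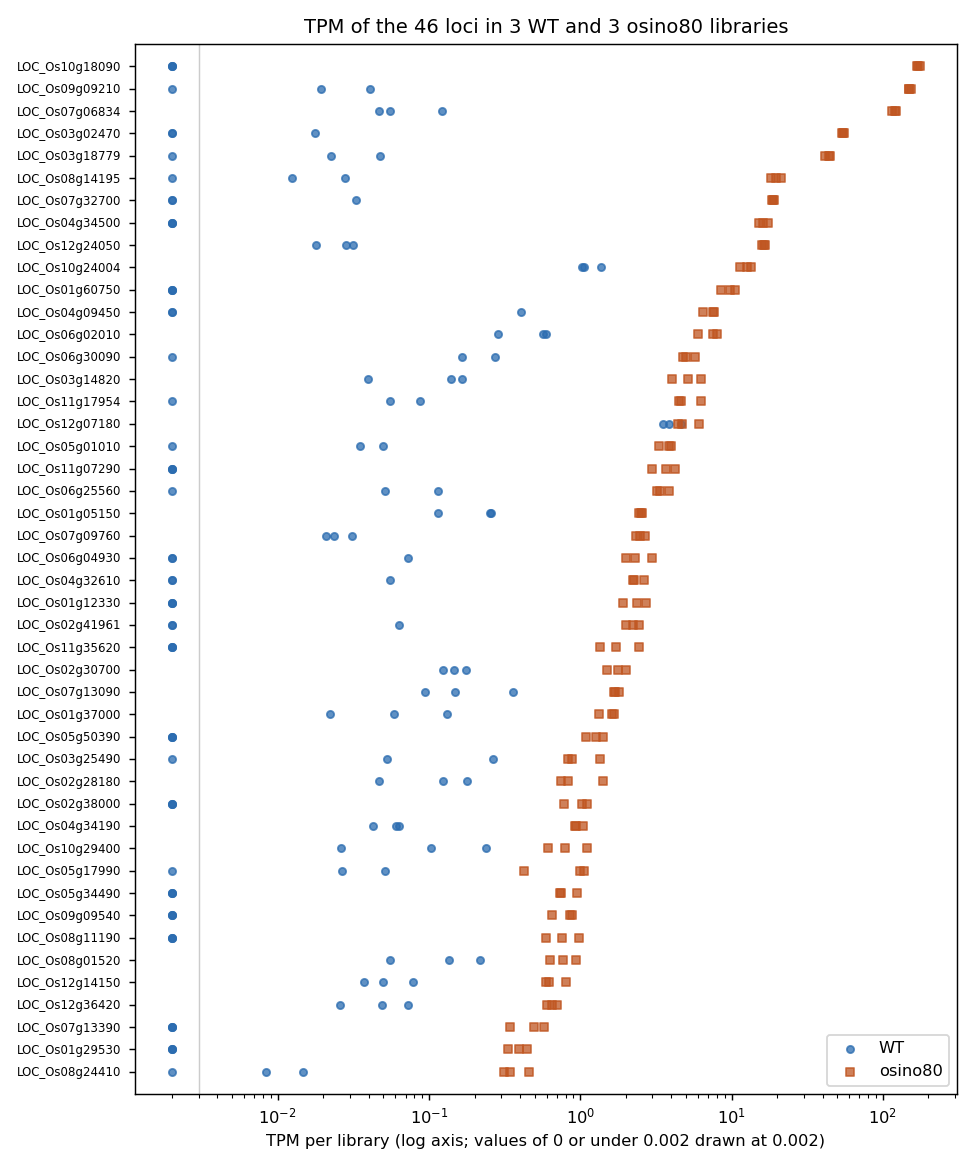
TPM of the 46 loci in each of the 3 WT (circles) and 3 osino80 (squares) libraries on a log axis, sorted by mean osino80 level; WT values of 0 are drawn at the left edge. The osino80 means run from 0.371 to 171 TPM, and WT and osino80 values overlap for LOC_Os12g07180 alone.

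The highest level per length was that of LOC_Os10g18090 on chromosome 10. It had 1, 0 and 0 counts in WT against 3147, 3221 and 3354 in osino80, which is 171 ± 4.41 TPM (SD, n = 3) in the mutant, rank 754 among 32270 loci with any TPM there. The ratio of summed counts, scaled by library totals, was 10444 with an exact 95% counting interval of 1874 to 412539. The single WT count lay in replicate 1; with that library set aside its level was at least 2233-fold that of WT, taking 3 counts over the remaining WT libraries as the limit of detection. The TPM table listed the locus at 0 in every WT library.

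LOC_Os09g09210 on chromosome 9 had the most reads of the set. Its counts were 2, 2 and 0 in WT against 8464, 8073 and 8613 in osino80, and its level in the mutant was 151 ± 2.69 TPM (SD, n = 3). The ratio was 6754 (exact 95% interval 2638 to 24791), and 4724 to 8906 when 1 WT library was left out. Counting intervals here cover counting error only. The same counts chose the members, so an interval that leaves out 1 is no test. The intervals are also too narrow, since 82.4% to 83.7% of the counts from 1 to 20 in each library were even. This happens where each read of a pair adds a count. For the same reason, bounds that take 3 counts as the limit of detection are too high.

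LOC_Os07g06834 on chromosome 7 came next by level per length. It had 2, 8 and 2 counts in WT against 6283, 6073 and 6251 in osino80, and its level in the mutant libraries was 123, 120.0 and 115 TPM. These 3 loci were the members above 100 TPM, and the 3 mutant libraries lay close together in each.

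The other members past 1000 counts were on chromosomes 3, 8 and 12. LOC_Os03g02470 had 2, 0 and 0 counts in WT against 3397, 3360 and 3682 in osino80, and LOC_Os03g18779 had 2, 4 and 0 against 2324, 2342 and 2346. LOC_Os08g14195 had 0, 2 and 4 counts in WT against 2131, 1931 and 1987 in osino80. LOC_Os12g24050 had 4, 6 and 4 against 2812, 2875 and 3037. In the mutant their levels were 54.6 ± 0.778, 43.2 ± 1.62, 19.6 ± 1.45 and 16.3 ± 0.323 TPM (SD, n = 3), in that order. The ratio of LOC_Os03g02470 was 5607 (exact 95% interval 1552 to 46304), and without WT replicate 1, which held its WT counts, at least 2397. No WT library had more than 8 counts in any of the 7 abundant members, and the lowest osino80 count was 1931.

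Below them among the 12 members with the most reads, LOC_Os11g17954 had 6, 6 and 0 counts in WT against 387, 276 and 292 in osino80, highest in replicate 1.

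The 7 abundant members varied little between mutant libraries. Their coefficient of variation of CPM over the 3 osino80 libraries had a median of 2.63%, beside 3.08% for the 9404 other tested loci with a mean osino80 count of 1000 to 10000. For the 19 members with a mean of 100 to 1000 counts it was 10.4%, beside 7.90% for 9155 other loci. For the 20 members with 40 to 100 counts it was 13.4%, beside 19.1% for 2296 other loci; the demand for 40 counts in every library bears on this last comparison.

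In 11 members no WT library had a single count. The highest of these was LOC_Os04g34500 with 844, 870 and 1013 counts in osino80 (16.3 ± 1.14 TPM, SD, n = 3), at least 977-fold that of WT by the same limit of 3 counts over the WT group. LOC_Os01g60750 followed with 231, 241 and 263 counts (9.57 ± 0.949 TPM), at least 263-fold higher. LOC_Os01g12330 had 243, 183 and 251 counts in osino80 and LOC_Os02g38000 had 193, 204 and 167. The level per length of the latter was only 0.970 ± 0.171 TPM, since it had 194 counts per TPM, beside 25.6 for LOC_Os01g60750.

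The remaining members at 0 in WT were LOC_Os11g07290, LOC_Os09g09540, LOC_Os11g35620, LOC_Os08g11190, LOC_Os01g29530, LOC_Os05g34490 and LOC_Os05g50390. LOC_Os11g07290 had 143, 158 and 121 counts in osino80, and LOC_Os05g50390, the lowest of all members by count, had 42, 43 and 48. For the 11 loci the bounds on the rise ran from at least 47.6-fold to at least 977-fold. These bounds are too high where each read of a pair adds a count.

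The other 35 members had some WT reads: 7 had 1 to 3 counts over the 3 WT libraries, 10 had 4 to 10 and 18 had more than 10. In 16 members every WT library had a count and in 8 only 1 library did. The smallest ratio was that of LOC_Os08g01520, with 4, 10 and 12 counts in WT against 44, 52 and 56 in osino80, a ratio of 6.28 (exact 95% interval 4.12 to 9.92). It was 4.76 without WT replicate 1 and 8.16 without WT replicate 3. For this locus, silent in WT and active in the mutant overstates the contrast: it was low in both. This limit is not particular to it. LOC_Os08g01520 was among the 14 members below 1 TPM in osino80 and the 3 with a count ratio below 10.

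LOC_Os03g25490, with 24, 6 and 0 counts in WT against 65, 93 and 75 in osino80, and LOC_Os06g02010, with 10, 12 and 7 against 141, 121 and 138, were just inside the WT limit. The ratio of LOC_Os03g25490 was 8.34, but 26.8 without WT replicate 1, which held most of its WT counts. Just outside it were LOC_Os03g37140 (10, 10 and 12 against 146, 127 and 133), LOC_Os06g15750 (12, 16 and 9 against 379, 386 and 362) and LOC_Os07g32680 (8, 15 and 20 against 304, 349 and 362). On the osino80 side, LOC_Os05g50390 and LOC_Os05g34490, the latter with 46, 48 and 53 counts, were just inside. LOC_Os05g23050 (48, 78 and 38), LOC_Os12g10870 (48, 38 and 72) and LOC_Os01g16200 (38, 44 and 46) were just outside. The 3 loci just outside the WT limit had lowest osino80 counts of 127, 362 and 304, above the 65, 121 and 44 of the 3 just inside.

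The deposited TPM table was compared with the counts member by member. In 45 of the 46 members all 3 osino80 TPM values were above all 3 WT values, as in 22.2% of the 24914 tested loci; the rule used the same libraries, so nothing is read from this share. In 44 members the mean WT level was below 0.5 TPM, and 13 members were listed at 0 TPM in all 3 WT libraries.

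LOC_Os12g07180 was the exception. By counts it had 10, 6 and 8 reads in WT and 134, 141 and 159 in osino80. By TPM it had 4.63, 3.51 and 3.83 in WT and 4.74, 4.42 and 6.13 in osino80, so the genotypes overlapped and the ratio of means was 1.28. The TPM table did not list this locus as silent in WT. Its counts per TPM were 28.4 in osino80 and 2.00 in WT, so the tables disagree on the WT libraries.

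LOC_Os10g24004 differed in the same way but by less. It had 3, 4 and 2 counts in WT against 353, 303 and 406 in osino80, a ratio of 127, and its TPM was 1.05, 1.03 and 1.37 in WT and 12.6, 11.4 and 13.4 in osino80, a ratio of 10.8. LOC_Os10g29400 also differed, with a ratio of 20.95 by counts and 6.84 by TPM; it had 27.3 counts per TPM in WT and 77.8 in osino80. What made the tables differ was not tested; the way the TPM values were computed is not given in the sources used here.

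**Figure D3:**
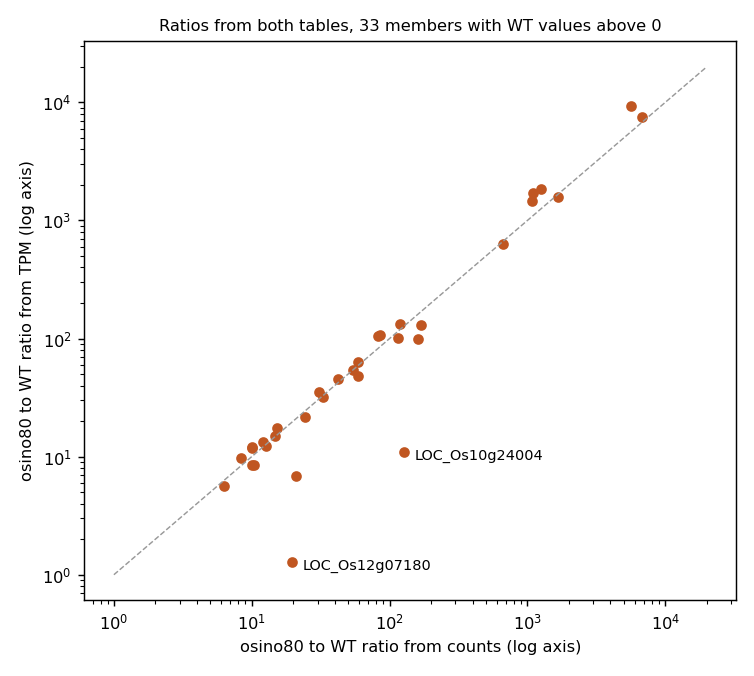
Ratio of osino80 to WT from summed counts (horizontal, log axis) and from mean TPM (vertical, log axis) for the 33 members with WT values above 0 in both tables; the dashed line marks equal ratios. Most members lie near the line, while LOC_Os12g07180 (19.4 by counts, 1.28 by TPM) and LOC_Os10g24004 (127 and 10.8) lie far below it.

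Counts per TPM grow with the length of a locus as the authors' table took it. In osino80 the members ranged from 9.32 counts per TPM in LOC_Os04g09450 to 240 in LOC_Os07g09760, with a median of 57.6. The median over the tested loci was 69.6, with quartiles of 46.8 and 99.3, and 30 of the 46 members lay below that median. If this measure follows length, the set held both short and long loci. For LOC_Os12g07180 it was 28.4 in osino80 but 2.00 in WT, so it is not a sure measure of length. LOC_Os07g09760 had 568, 598 and 635 counts in osino80 but 2.32 to 2.68 TPM, whereas LOC_Os04g09450 reached 7.22 ± 0.692 TPM with 75, 55 and 72 counts.

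Members lay on all 12 chromosomes. Chromosomes 1 and 7 had 5 each, chromosomes 2, 3, 4, 5, 6, 8 and 12 had 4 each, chromosomes 10 and 11 had 3 each and chromosome 9 had 2. Per 1000 loci this was 0.587 on chromosome 9, the lowest, to 1.12 on chromosome 7, the highest. Chromosome 1, with 11.7% of all loci, held 10.9% of the members.

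The members did not stand in runs. No pair of members was within 5 steps of each other in identifier order, and the median distance between successive members of a chromosome was 656 loci. The closest were LOC_Os07g13090 and LOC_Os07g13390 at 26 steps, LOC_Os04g34190 and LOC_Os04g34500 at 28, and LOC_Os09g09210 and LOC_Os09g09540 at 29. The next pair was 153 steps apart.

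Along the identifier order the members were unevenly placed. Each chromosome's loci were divided in order into 3 parts of equal number. Of the 46 members, 21 were in the first part, 20 in the middle part and 5 in the last. Each part holds 33.3% of all loci, but the last holds 42.8% of the tested loci and the middle 24.5%. Members were thus scarce where expressed loci were most frequent. A member must be silent in WT, and how many such loci each part holds was not counted. The 5 in the last part were LOC_Os01g60750, LOC_Os02g41961, LOC_Os05g50390, LOC_Os11g35620 and LOC_Os12g36420. All 7 abundant members were in the first or middle part. The 9 loci on in WT and silent in osino80 had 2, 1 and 6 in the 3 parts. The split into 3 parts was chosen after the positions had been seen, and it was not tested.

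**Figure D4:**
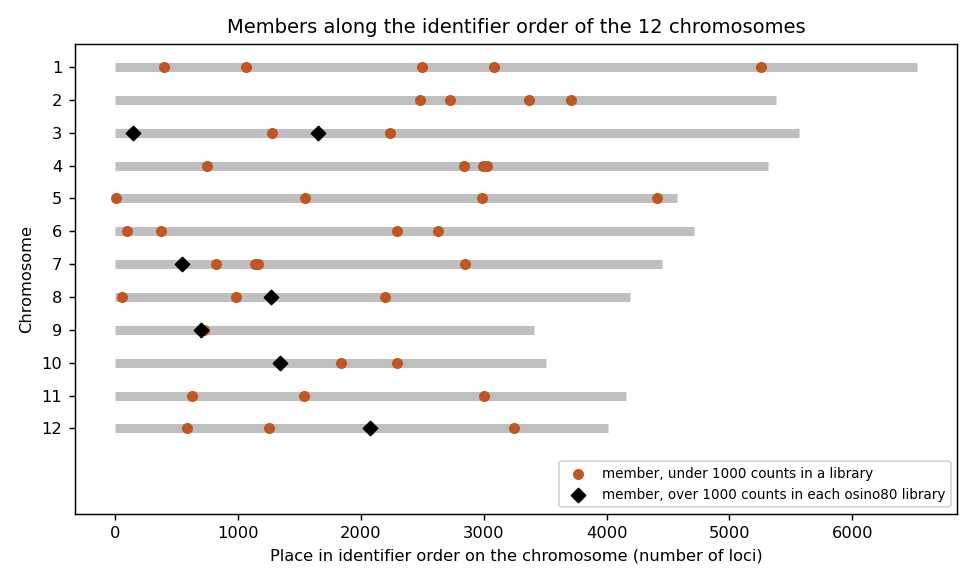
Place of the 46 members in the identifier order of the 12 chromosomes (grey bars, drawn to the number of loci); diamonds mark the 7 members with over 1000 counts in each osino80 library. Members are spread over all chromosomes, with 5 of 46 in the last of 3 equal parts of the order.

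The neighbours of the members were then compared between genotypes. They played no part in the rule, so each was tested with edgeR's quasi-likelihood test, fitted on all 24914 tested loci with Benjamini-Hochberg adjustment over all of them and a threshold of 0.05. Of the 92 loci 1 step before or after a member, none was itself a member, and 43 were tested. Among these, 16 were higher in osino80 and 7 lower. Over all tested loci 18.4% were higher and 19.1% lower (37.6% called in all), beside 37.2% and 16.3% of the tested neighbours. At least 2-fold higher were 7 of the 43 neighbours, 16.3%, beside 2.43% of all tested loci. At least 2-fold lower was 1, beside 1.33%. Of the 7, LOC_Os11g35610 passed the filter on low counts through its osino80 libraries. A filter on a mean count of at least 10 left this locus out. That filter gave 6 of 42 neighbours at least 2-fold higher, beside 597 of 24817 loci. The median log2 fold change of the 43 was 0.10, beside 0.00 over all tested loci.

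Most tested neighbours did not change 2-fold or did not pass. The 20 tested neighbours that did not pass and the 15 that passed with less than a 2-fold change were 35 of 43; the 15 had log2 fold changes from -0.32 to 0.99. The other 49 neighbours had too few reads to be tested, with at most 26 counts in any WT library and 22 in any osino80 library. Among these, LOC_Os08g14200 had 0, 0 and 0 counts in WT against 16, 8 and 18 in osino80. LOC_Os02g37990 had 4, 2 and 2 against 14, 8 and 22, and LOC_Os07g09750 had 0, 2 and 0 against 8, 6 and 12. Each of these was higher in every osino80 library than in any WT library. LOC_Os09g09220 went the other way, with 4, 6 and 4 counts in WT against 2, 2 and 2 in osino80. All were picked after their values were seen. By TPM, which is not the same measure as these counts, osino80 was higher without overlap in 17.4% of the 34450 loci with any TPM. In WT 50 of the 92 neighbours were silent by the limit of 30 counts, 54.3%, which is close to the 55.9% of all loci. Of the members, 16 had silent loci on both sides, 18 on 1 side and 12 on neither.

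With all 6 libraries, the largest fitted rise next to a member was at LOC_Os07g32710 on chromosome 7. It had 111, 109 and 114 counts in WT against 5078, 5108 and 5238 in osino80, or 1.65 ± 0.186 and 80.9 ± 1.74 CPM (SD, n = 3). In edgeR its log2 fold change was 5.62 with an SE of 0.06 and an adjusted p of 1.82e-274. The member beside it, LOC_Os07g32700, had 2, 0 and 0 counts in WT against 663, 687 and 685 in osino80. On the other side the next locus, LOC_Os07g32690, had no count in any library, and the one after it was LOC_Os07g32680, the locus just outside the WT limit, with 8, 15 and 20 counts in WT against 304, 349 and 362 in osino80. Counts of both genotypes singled out LOC_Os07g32680 as a near miss of the rule, so its difference is a description. Here 3 of 4 successive loci had more counts in every osino80 library than in any WT library. The rule fixed this for LOC_Os07g32700, and the same counts singled out LOC_Os07g32680, so only LOC_Os07g32710 was not chosen by them. The stretch was picked after its values were seen. By TPM, which is not the same measure as these counts, osino80 was higher without overlap in 22.2% of the tested loci. LOC_Os07g32730 on the far side was at 0.47 on the log2 scale (edgeR adjusted p = 0.00125).

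LOC_Os04g34490, 1 step before LOC_Os04g34500 on chromosome 4, had 38, 38 and 46 counts in WT against 934, 988 and 1068 in osino80. Its log2 fold change was 4.70 ± 0.13 (edgeR adjusted p = 2.19e-128), and its level of 17.5 TPM in the mutant was close to the 16.3 TPM of the member. The locus on the other side, LOC_Os04g34510, had no count in any library. Both loci of this pair were on in all 3 mutant libraries, and the members' limit of 30 WT counts separated them.

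Other rises stood next to members of lower level. LOC_Os07g13100, after LOC_Os07g13090, had 120, 127 and 125 counts in WT against 530, 500 and 562 in osino80 (log2 change 2.19 with an SE of 0.13; adjusted p = 3.27e-46 in edgeR). LOC_Os10g29390, before LOC_Os10g29400, had 94, 44 and 56 counts in WT against 235, 210 and 170 in osino80 (log2 change 1.77 with an SE of 0.20; adjusted p = 2.63e-16 in edgeR). LOC_Os11g35610, before LOC_Os11g35620, had 3, 0 and 0 counts in WT against 17, 22 and 17 in osino80 (log2 change 4.16 with an SE of 0.87; adjusted p = 1.73e-05 in edgeR). Its WT counts lay in replicate 1 alone, without which the fitted log2 change was 7.25, a size that depends on the fit since no WT count is left; it passed the filter on low counts through the osino80 libraries. In these 3 loci the counts of the genotypes did not overlap. They were named for passing with a 2-fold rise, so nothing is read from this. Measured by TPM, 22.2% of the tested loci were higher in osino80 without overlap.

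A pair of the neighbours that rose at least 2-fold was well expressed in WT. LOC_Os06g02019, after LOC_Os06g02010, rose from 18.7 ± 0.191 to 59.3 ± 1.67 CPM (SD, n = 3; log2 change 1.67 with an SE of 0.05; adjusted p = 1.12e-132 in edgeR). LOC_Os08g24400, before LOC_Os08g24410, rose from 23.5 ± 0.793 to 63.6 ± 2.56 CPM (log2 change 1.44 with an SE of 0.04; adjusted p = 7.71e-121 in edgeR). Their members were far lower, at 2.10 ± 0.159 and 1.16 ± 0.250 CPM in osino80.

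In the opposite direction, LOC_Os01g60740 fell beside LOC_Os01g60750, which was at 0 in WT. It had 5771, 5420 and 4885 counts in WT against 1643, 1578 and 1689 in osino80, from 78.9 ± 0.936 to 25.8 ± 0.548 CPM (SD, n = 3). Its log2 fold change was -1.62 ± 0.04 (edgeR adjusted p = 1e-148). It was the neighbour that fell at least 2-fold, and on its other side LOC_Os01g60730 was 0.63 higher on the log2 scale (edgeR adjusted p = 0.000378).

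No tested neighbour of the 7 most abundant members passed with a 2-fold change. Of their 14 neighbours 8 were tested and 3 were higher (37.5%, beside 37.2% of all tested neighbours and 18.4% of all tested loci), by 0.54 (LOC_Os03g02460), 0.21 (LOC_Os03g18770) and 0.30 (LOC_Os08g14190) on the log2 scale. The 6 that were not tested include LOC_Os08g14200, after LOC_Os08g14195, which had counts in the mutant libraries alone. LOC_Os07g06834 stood between LOC_Os07g06830 at 0.00 and LOC_Os07g06840 at 0.05 on the log2 scale, both expressed in WT with over 1000 counts in each library and neither past the threshold. LOC_Os09g09210 and LOC_Os10g18090, the members with the most reads and the highest level, stood between loci with at most 6 counts in any library. LOC_Os12g24050 had LOC_Os12g24040 on 1 side, at -0.12 on the log2 scale and not past the threshold, and on the other LOC_Os12g24070, with no count in any library. LOC_Os03g02480 (0.10) and LOC_Os03g18790 (-0.24), on the far sides of their members, also did not pass.

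Among other members named for more than 1 reason, LOC_Os10g24004 stood between LOC_Os10g24000, with at most 10 counts in any library, and LOC_Os10g24010, with none. LOC_Os05g34490 stood between LOC_Os05g34480 (-0.07 on the log2 scale) and LOC_Os05g34500 (0.19), neither past the threshold. LOC_Os05g50390 stood between LOC_Os05g50380, which fell by 0.23 on the log2 scale (adjusted p = 2.21e-07 in edgeR), and LOC_Os05g50400, with no count. LOC_Os01g60760, on the far side of LOC_Os01g60750, had at most 13 counts in any library. The 7 members that did have a neighbour risen at least 2-fold had 50 to 1013 counts in the osino80 libraries. Whether the strand was used in counting, and whether any member overlaps its neighbour, is not given in the sources used here, so reads of overlapping loci cannot be told apart.

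Farther from the members the shares were lower. At 2 steps 25.6% of 39 tested loci were higher and 5.13% at least 2-fold higher; at 3 steps the shares were 14.0% and 6.98% of 43. At 4 steps they were 16.2% and 2.70% of 37, and at 5 steps 11.9% and 2.38% of 42, beside 18.4% and 2.43% over all loci. The shares at different distances were not tested against each other, and each rests on few loci. At 2 steps the 2 loci at least 2-fold higher were LOC_Os07g32680, the near miss of the rule, and LOC_Os08g11170. LOC_Os08g11160 counted at 3 steps and LOC_Os11g07240 at 5 steps. Apart from LOC_Os07g32680, each of these passed the filter on low counts through its osino80 libraries. The 2-fold shares beyond 1 step are therefore descriptions only.

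**Figure D5:**
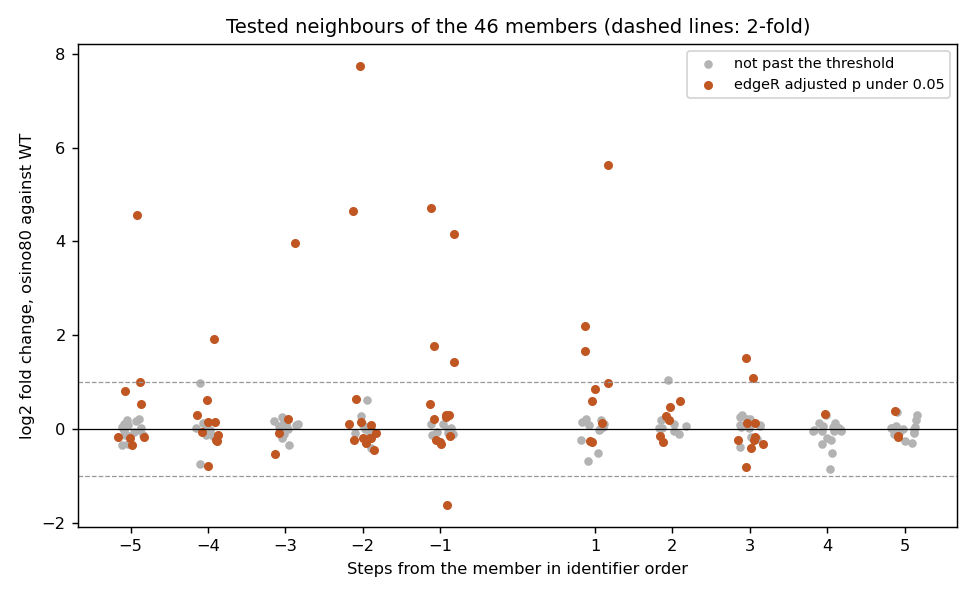
Log2 fold change (osino80 against WT) of tested neighbours at 1 to 5 steps before (negative) and after (positive) each member in identifier order; coloured points passed an edgeR adjusted p of 0.05 and dashed lines mark 2-fold. At 1 step 7 of 43 tested neighbours were at least 2-fold higher and 1 lower; the value at 7.74 is LOC_Os08g11170, which had no WT count, so its size depends on the fit.

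The 9 loci with the opposite pattern, on in WT and silent in osino80, were mostly of low level. LOC_Os10g22630 had 31853, 29818 and 26679 counts in WT against 10, 4 and 10 in osino80 (532 against 0.162 TPM), and the other 8 had 40 to 218 counts in each WT library. Of their 18 neighbours 7 were tested; 2 were higher (28.6%, beside 18.4% of all tested loci) and 3 lower (42.9%, beside 19.1%), and none of the 7 passed with a 2-fold change. The set silent in WT therefore held 7 loci above 1000 counts in each library of the active genotype, and the opposite set held 1.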

How the data were processed

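Per the labels' protocols, strand-specific mRNA libraries were made from total RNA of 6 seedling samples. Per the submitters' processing notes, cutadapt, HISAT2, SAMtools and featureCounts were used; versions, build, annotation, strand setting and treatment of multi-mapping reads are details not given in the sources used here. Here, the authors deposited raw counts per locus (61426662 to 73293481 per library) and a TPM table, each of whose columns sums to 1000000.

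Members were found on the deposited counts. The members and all lists and rules were chosen with earlier results of these data known. Loci were ordered by identifier within a chromosome. Neighbours were taken from an edgeR 4.0.16 fit in R 4.3.3 on the counts of all 6 libraries (filterByExpr, TMM, glmQLFit with robust estimation, glmQLFTest, two-sided, Benjamini-Hochberg). The fit was also run on counts simulated around the mean levels of the tested loci. That run does not cover large rises from near 0 in WT. CPM values are TMM-scaled. Standard errors (SE) of log2 changes were derived from the F statistic. Ratios of members use summed counts over summed library totals, with exact conditional 95% intervals, and a floor of 3 counts over the group where WT had 0.

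Loci named are OsINO80, the 12 members highest by TPM and the 12 highest by count, members at 0 in WT or next to a threshold, neighbours changed at least 2-fold, and every neighbour of members named for 2 or more reasons; others were chosen after their values were seen. Marker lists are of locus numbers taken from general knowledge, not checked against an annotation. Alternatives were other thresholds, scalings, filters, DESeq2 1.42.0, limma 3.58.1 (voom, and log2(TPM + 1) or log2(TPM + 0.1)), the replicate block, windows of neighbours and each library left out.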

Additional observations from a re-analysis of the deposited data

How the results depend on the processing

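The number of loci in the set follows its thresholds. It was 28 with a WT sum of at most 10, 95 with at least 20 counts in each osino80 library and 22 with at least 100, against 46; with a WT sum of at most 60, TMM-scaled or halved counts, or only loci whose TPM values do not overlap it lay between 35 and 63. Leaving out 1 library gave 45 to 53. The opposite set of 9 became 1 and 24 with sums of at most 10 and 60, 35 and 4 with at least 20 and 100 counts in each library, and 5 with TMM-scaled counts; it was 9 to 11 with 1 library left out.

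Among tested neighbours 1 step away, 16 higher, 7 lower and 7 at least 2-fold higher became 26, 16 and 9 within 2 steps, 32, 24 and 12 within 3, and 43, 35 and 14 within 5, as more loci were tested. The wider windows include LOC_Os07g32680, a near miss of the rule, and LOC_Os08g11170, which passed the filter on low counts through its osino80 libraries. So does the set of the nearest tested locus on each side, which gave 25, 15 and 11 of 91 (27.5%, 16.5% and 12.1%). Around the 11 members at 0 in WT (chosen after seeing the data, as were the TPM comparison and the next 2) it was 2, 3 and 2 of 9; leaving out LOC_Os12g07180 or neighbours of at most 100 counts kept each count within 1.5 times. With 1 library left out the counts were 14 to 17, 5 to 7 and 7 to 10. The other scalings, filters and tools kept them within 1.5 times. Over all loci, 4596 were higher, 4767 lower and 605 at least 2-fold higher; the last fell to 187 on log2(TPM + 1), where the pseudocount shrinks low loci. With 1 library left out these were 4037 to 4159, 4201 to 4356 and 572 to 655.

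Libraries sharing a number showed no joint deviation (correlations 0.0117, -0.0173 and 0.00981), so numbers were not taken as pairs; with the replicate number as a block, 15, 6 and 7 neighbours were called in the same order. Each of the 8 named neighbours with a 2-fold change kept its direction and call in every alternative that tested it.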

Other observations

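Near LOC_Os08g11190, which had 51, 79 and 68 counts in osino80 and none in WT, other low loci showed the same pattern. LOC_Os08g11170, 2 steps before it, had no WT count and 31, 22 and 24 in osino80 (edgeR adjusted p = 1.70e-09). LOC_Os08g11160, 3 steps before it, had 0, 2 and 3 counts in WT against 10, 27 and 42 in osino80 (edgeR adjusted p = 1.37e-06). LOC_Os11g07240, 5 steps before LOC_Os11g07290, had 0, 0 and 6 counts in WT against 32, 58 and 53 in osino80 (edgeR adjusted p = 3.09e-11). These loci were picked after their values were seen, and each passed the filter through its osino80 libraries.

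Of the 78 WT values above 0 in the members, 71 were even.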
